A study of Mus musculus with 9 samples.

Results

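The scavenger receptors and endocytic lectins of bone marrow-derived macrophages (BMDMs) were examined as 10 genes chosen by symbol: Mrc1, Msr1, Cd36, Marco, Clec10a, Mgl2, Clec4n, Clec7a, Cd163 and Stab1. Each symbol stood on a single row, so the set was 10 of the 53465 genes in the raw count table. BMDMs are macrophages grown from marrow cells in the presence of the growth factor CSF1. The 9 RNA-Seq libraries came from BMDMs of male wild-type C57BL/6 mice (C57bl6/J in the methods of the study), grown with 50 ng/ml CSF1 and 10% FBS, in 3 groups of 3. One group was left untreated (UNX). The others received medium conditioned by pulmonary artery adventitial fibroblasts of control calves (CO-CM) or of calves with pulmonary hypertension induced by hypoxia (PH-CM). The exposure is given as 16 h in one protocol label and as 24 h in another. The methods of the study give a time between these.

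Each conditioned medium was a pool from several bovine fibroblast populations, and the experiment was repeated, so the 3 libraries of a group are culture repeats. Whether the repeats shared a pool of medium or a marrow donor is not stated. The p-values therefore measure the spread between culture repeats and cannot be read as a spread between animals. UNX cells received no conditioned medium, so a comparison with UNX covers everything that such a medium adds or lacks, including added proteins of another species.

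Scavenger receptors are surface proteins that bind modified lipoproteins, apoptotic cells, polyanions and microbial surfaces and carry them into endosomes. Endocytic C-type lectins do the same for glycans: the mannose receptor and the galactose-binding lectins mainly internalize their ligands, whereas Dectin-1 and Dectin-2 also signal through the kinase Syk and the adaptor CARD9. Several of these genes, Mrc1, Cd163, Clec10a and Mgl2 among them, are widely used as markers of alternatively activated or tissue-resident macrophages.

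Counted reads ran from 62017933 to 84314201 per library. The 9 macrophage marker genes, which include Adgre1, Csf1r and Cd68, all passed the filter, with summed levels of 11826 to 12616 CPM, counts scaled to library size, in UNX, 19020 to 19977 in CO-CM and 21463 to 23275 in PH-CM. Most of each sum was Lyz2, at 6854 to 7557, 12536 to 13037 and 14487 to 15671 CPM in the same order. Not all 9 rose with the sum. Cd14 was at 287 to 335 CPM in UNX, 158 to 189 in CO-CM and 735 to 890 in PH-CM. Cx3cr1 was at 3.23 to 8.04, 5.99 to 9.57 and 0.58 to 0.744 CPM. The dendritic cell list, which matters for lectins shared with those cells, summed to 0.864 to 1.67 CPM over all libraries with 0 of its 8 genes past the filter. Fibroblast markers summed to 197 to 249 CPM in UNX, 267 to 318 in CO-CM and 249 to 335 in PH-CM, most of it Col1a1 and Col1a2, while Lum stayed between 0 and 0.0644 CPM. The neutrophil and precursor list reached 31.1 CPM in PH-CM against at most 8.44 in UNX, nearly all of it Mmp8, with Ly6g at 0 in every library. The endothelial list of 4 genes, for a cell type that also expresses Stab1 and Cd36, summed to 142 to 182 CPM in UNX, 408 to 480 in CO-CM and 311 to 330 in PH-CM, most of it Vwf, with Cdh5 at most at 1.51 and Tek at most at 0.0446 CPM. The lymphocyte, mast cell and erythroid lists stayed at or below 0.757 CPM in every library. The part of these other cell types in the results below was not tested, and in bulk RNA fewer cells expressing a gene cannot be told apart from less RNA per cell.

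A gene was tested where it exceeded 1 CPM in at least 3 libraries, which kept 11950 genes. A gene was called changed at a false discovery rate (FDR) of at most 0.05 in the edgeR quasi-likelihood test and a fold change of at least 1.2. Of the 10 receptors, 9 passed the filter and Marco did not. Mgl2 passed only through UNX, where all 3 of its libraries above 1 CPM lay, so its place among the genes lower in conditioned medium is partly set by the filter.

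The receptors fell into groups with different patterns over the 3 conditions. Mrc1, Cd163 and Stab1 were reduced by CO-CM relative to UNX and stood higher with PH-CM than with CO-CM. Clec7a did the reverse, high under CO-CM alone. Msr1, Cd36, Clec10a and Mgl2 were lower under both media, and Clec4n was higher under both, most under PH-CM. Over all genes tested, 437 (3.66%) were called lower for CO-CM against UNX together with higher for PH-CM against CO-CM, and 2886 (24.2%) were called lower under both media. With Mrc1 counted in both patterns, 3 of the receptors had the first and 5 the second. The 5 include Mgl2, which the filter favoured. Both calls of the first pattern use the same CO-CM libraries, and both of the second the same UNX libraries. The calls within a pattern are therefore not independent.

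**Figure D1:**
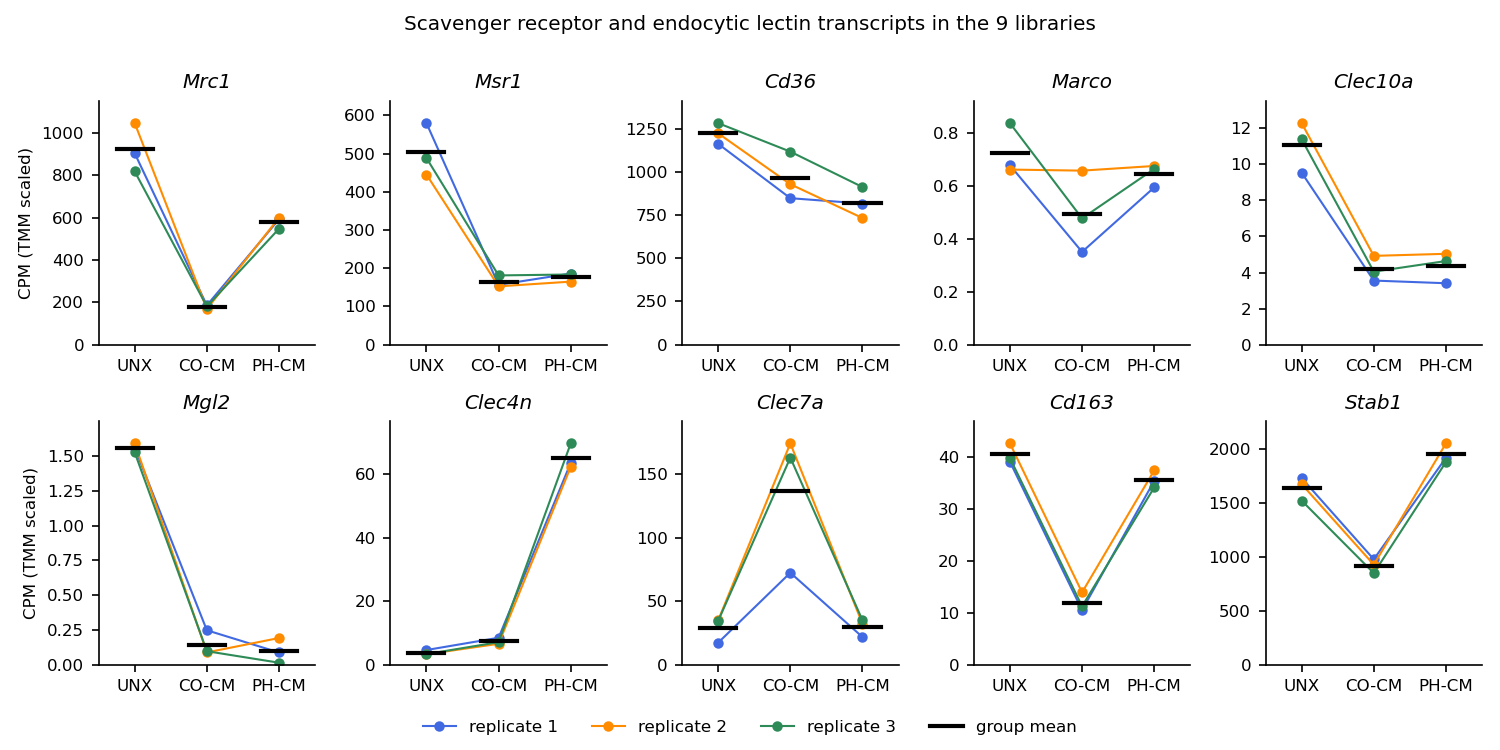
Levels of the 10 receptor transcripts in the 9 libraries, in CPM scaled with TMM factors on a linear axis from 0, with a scale for each gene. Coloured points joined by lines are libraries with the same replicate number and black bars are group means. Clec4n sits between 62.2 and 69.5 CPM in PH-CM and at most at 8.53 elsewhere, and Clec7a is lowest in replicate 1 of every group.

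The promoters of the genes that moved together under the media, and of Clec7a, which moved against them, are shown here so that their sequences can be compared. They are RefSeq promoters on GRCm38.p6, each covering 250 bases before to 50 bases after a start site and written 5′ to 3′ on the strand of the gene. Capitals mark GAGGAA or its reverse complement TTCCTC, the core of the PU box bound by the myeloid factor PU.1.

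Mrc1, chr2:14229164-14229463, plus strand: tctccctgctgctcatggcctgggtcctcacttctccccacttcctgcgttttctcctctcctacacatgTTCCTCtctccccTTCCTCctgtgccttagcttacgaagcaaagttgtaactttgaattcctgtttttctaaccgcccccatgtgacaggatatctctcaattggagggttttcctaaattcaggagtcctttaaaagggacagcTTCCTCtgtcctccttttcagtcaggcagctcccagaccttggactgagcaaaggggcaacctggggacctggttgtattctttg
Cd163, chr6:124304401-124304700, plus strand: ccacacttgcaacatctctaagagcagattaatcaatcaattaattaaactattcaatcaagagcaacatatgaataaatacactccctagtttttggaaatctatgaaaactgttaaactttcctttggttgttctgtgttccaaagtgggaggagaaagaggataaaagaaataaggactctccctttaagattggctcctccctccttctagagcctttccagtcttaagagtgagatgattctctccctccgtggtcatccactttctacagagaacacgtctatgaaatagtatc
Stab1, chr14:31168592-31168891, minus strand: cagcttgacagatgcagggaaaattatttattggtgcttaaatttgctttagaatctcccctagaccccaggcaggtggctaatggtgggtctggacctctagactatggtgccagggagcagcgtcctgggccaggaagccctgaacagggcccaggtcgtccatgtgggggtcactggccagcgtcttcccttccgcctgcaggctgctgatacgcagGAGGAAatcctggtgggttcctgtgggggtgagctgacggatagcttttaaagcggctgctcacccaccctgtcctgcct
Clec7a, first of 2 promoters, chr6:129472730-129473029, minus strand: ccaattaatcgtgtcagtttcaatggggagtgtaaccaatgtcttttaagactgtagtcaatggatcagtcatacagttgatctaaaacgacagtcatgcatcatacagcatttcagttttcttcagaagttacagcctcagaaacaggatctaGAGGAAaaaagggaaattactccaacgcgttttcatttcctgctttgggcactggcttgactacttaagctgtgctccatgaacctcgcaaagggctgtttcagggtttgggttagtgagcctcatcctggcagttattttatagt

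The table held promoters of 7 of the 10 genes, with none for Msr1, Clec10a and Clec4n. Both strands were first searched for a full PU.1 site (GAGGAAGT), a STAT site (TTCNNNGAA), an AP-1 site (TGANTCA) and a MAF site (TGCTGAC), which stand in 3.20%, 8.30%, 7.81% and 4.67% of the 32851 promoters in the table. None of the 4 was found in a window of the 7 genes. The shorter PU box core, searched after that and contained within the full PU.1 site, occurs in 28.3% of all promoters. It stood in the windows of Mrc1, Marco, Mgl2, Clec7a and Stab1 and not in those of Cd36 and Cd163. Mrc1 held 3 copies, with first bases at -180, -167 and -35 from the start site, and Stab1 held 1 at -30. These matches are letters in a window and were not tied to binding of any factor.

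Mrc1 encodes the mannose receptor CD206, which takes up mannosylated glycoproteins and collagen fragments. The gene lies at chr2:14229392-14332057 on GRCm38, with the microRNA gene Mir511 inside it on the same strand and no shared exon base. Its level was 903, 1045 and 817 CPM in UNX, 185, 169 and 180 CPM in CO-CM, and 592, 599 and 547 CPM in PH-CM. The 3 groups did not overlap: UNX was highest, PH-CM intermediate and CO-CM lowest. Mrc1 fell by 2.37 on the log2 scale under CO-CM against UNX (SE 0.0877, edgeR FDR = 1.02e-08), a 5.18-fold difference. Under PH-CM it fell by 0.67 (SE 0.0837, edgeR FDR = 3.43e-05). The PH-CM level was 3.25-fold that of CO-CM (log2 fold change 1.70, SE 0.0858, edgeR FDR = 3.73e-07).

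Cd163 encodes the receptor for haptoglobin-hemoglobin complexes. Its gene lies at chr6:124304656-124330527. The libraries gave 39.1, 42.7 and 39.8 CPM in UNX, 10.6, 14.0 and 11.3 CPM in CO-CM, and 35.4, 37.5 and 34.2 CPM in PH-CM. CO-CM stood far below both other groups, and every PH-CM library was below every UNX library by a small margin. Under CO-CM the transcript fell by 1.76 on the log2 scale (SE 0.095, edgeR FDR = 1.01e-07). Between PH-CM and UNX the log2 difference was -0.18, with a 95% interval of -0.38 to 0.02 (edgeR FDR = 0.0879), and the gene was not called. With the replicate number as a block its edgeR FDR was 0.0119, with the fold change still under the threshold. PH-CM exceeded CO-CM 2.99-fold (log2 fold change 1.58, SE 0.095, edgeR FDR = 1.19e-06).

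Stab1 encodes stabilin-1, a multi-domain receptor that clears SPARC, acetylated lipoprotein and apoptotic cells. It lies at chr14:31139013-31168641 on the minus strand. Its last exon shares 112 of 10288 exon bases with Nt5dc2 on the opposite strand, and the counting options that the study lists name no strand setting, so reads of the pair in those bases cannot be told apart. Stab1 was at 1732, 1676 and 1524 CPM in UNX, 979, 929 and 851 CPM in CO-CM, and 1921, 2054 and 1881 CPM in PH-CM. The groups were fully separated, with CO-CM lowest and PH-CM highest. Stab1 fell by 0.84 on the log2 scale under CO-CM (SE 0.0708, edgeR FDR = 2.55e-06) and was 2.12-fold higher with PH-CM than with CO-CM (log2 fold change 1.09, SE 0.0712, edgeR FDR = 2.03e-06). Between PH-CM and UNX the log2 difference was 0.25 (SE 0.0704, edgeR FDR = 0.00841). That is 1.19-fold, just under the fold threshold, so the gene was not called there. It was called in that comparison without replicate 1 of UNX or without replicate 3 of PH-CM.

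Clec7a encodes Dectin-1, the beta-glucan receptor that signals through Syk. The gene lies at chr6:129461591-129472779 on the minus strand. It gave 17.5, 35.0 and 34.7 CPM in UNX, 72.5, 174 and 163 CPM in CO-CM, and 21.9, 32.4 and 35.1 CPM in PH-CM. Every CO-CM library lay above all others, while UNX and PH-CM overlapped throughout. Replicate 1 was the lowest library of each group, which left coefficients of variation of 34.5%, 40.8% and 23.4% in UNX, CO-CM and PH-CM. The ratio of CO-CM to UNX within a replicate number was steadier, with log2 values of 2.05, 2.31 and 2.23.

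Clec7a rose by 2.23 on the log2 scale under CO-CM (SE 0.35, edgeR FDR = 0.000221), a 4.68-fold difference, and was 4.58-fold lower under PH-CM than under CO-CM (log2 fold change -2.20, SE 0.35, edgeR FDR = 0.000745). With the replicate number as a block, the SE of the first difference was 0.0984 and its edgeR FDR 8.07e-09. Between PH-CM and UNX the log2 difference was 0.03, with a 95% interval of -0.73 to 0.79 (edgeR FDR = 0.938). With the block it was 0.07 (SE 0.101, edgeR FDR = 0.513). With replicate 1 left out of every group, the log2 difference under CO-CM was 2.26 and that between the media -2.31.

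Msr1 encodes the class A scavenger receptor SR-A1, which takes up acetylated and oxidized LDL. It lies at chr8:39581685-39642673 on the minus strand. It was at 579, 445 and 488 CPM in UNX, 156, 153 and 181 CPM in CO-CM, and 186, 165 and 184 CPM in PH-CM. Both media were well below UNX and overlapped each other. Msr1 fell by 1.63 on the log2 scale under CO-CM (SE 0.101, edgeR FDR = 2.79e-07) and by 1.50 under PH-CM (SE 0.101, edgeR FDR = 3.2e-07). The difference between the media was 0.13, with a 95% interval of -0.09 to 0.35 (edgeR FDR = 0.35).

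Cd36 encodes the class B scavenger receptor that binds oxidized LDL and long-chain fatty acids. It lies at chr5:17781690-17888801 on the minus strand. Its level was 1162, 1223 and 1282 CPM in UNX, 848, 929 and 1117 CPM in CO-CM, and 817, 733 and 912 CPM in PH-CM. UNX stood above both media, which overlapped. Cd36 fell by 0.57 on the log2 scale under PH-CM (SE 0.105, edgeR FDR = 0.000544) and by 0.34 under CO-CM (SE 0.105, edgeR FDR = 0.0139). The second is 1.27-fold, and without replicate 1 of CO-CM it was -0.26 on the log2 scale, below the fold threshold. PH-CM and CO-CM differed by -0.23 (edgeR FDR = 0.107), which was called only without replicate 1 of CO-CM, at -0.32. With the replicate number as a block the difference was -0.23 (SE 0.0597, edgeR FDR = 0.00827). Only the fold threshold kept it from being called there.

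Clec10a and Mgl2 encode the macrophage galactose-type lectins MGL1 and MGL2, which bind terminal galactose and N-acetylgalactosamine. They are paralogs 18647 bases apart on chr11, at 70156197 to 70170834 and 70130329 to 70137550, and reads that match both genes could have been lost or assigned to either. Clec10a was at 9.54, 12.3 and 11.4 CPM in UNX, 3.55, 4.92 and 4.05 CPM in CO-CM, and 3.41, 5.04 and 4.64 CPM in PH-CM. Both media lay below UNX and overlapped each other. Clec10a fell by 1.41 on the log2 scale under CO-CM (SE 0.166, edgeR FDR = 2.86e-05) and by 1.35 under PH-CM (SE 0.166, edgeR FDR = 3.15e-05). The media differed by 0.06, with a 95% interval of -0.32 to 0.44 (edgeR FDR = 0.807).

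Mgl2 was far less abundant, with 101, 120 and 131 reads in UNX, 17, 6 and 7 reads in CO-CM, and 6, 12 and 1 reads in PH-CM. Its mean level was 1.56 ± 0.0325 CPM in UNX (SD, n = 3), 0.146 ± 0.0893 in CO-CM and 0.0994 ± 0.0891 in PH-CM. Mgl2 fell by 3.40 on the log2 scale under CO-CM (SE 0.419, edgeR FDR = 3.78e-05) and by 3.95 under PH-CM (SE 0.455, edgeR FDR = 1.76e-05). The first was -4.02 without replicate 1 of CO-CM and the second -4.81 without replicate 2 of PH-CM, both still called. Since Mgl2 passed the filter only through UNX, it could be tested only because it was high there. Its calls against UNX are therefore partly set by the filter, and it was not tested when any UNX library was left out. At these read numbers the difference between the media was -0.55, with a wide 95% interval of -1.97 to 0.87 (edgeR FDR = 0.528).

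Clec4n encodes Dectin-2, a receptor for high-mannose glycans that pairs with the Fc receptor gamma chain. It lies at chr6:123229843-123247021. It gave 4.68, 3.35 and 3.40 CPM in UNX, 8.53, 6.64 and 7.14 CPM in CO-CM, and 63.4, 62.2 and 69.5 CPM in PH-CM. No library of one group reached the range of another. Clec4n rose by 0.97 on the log2 scale under CO-CM (SE 0.134, edgeR FDR = 8.61e-05), a 1.96-fold difference. Under PH-CM it rose by 4.10 (SE 0.135, edgeR FDR = 2.37e-09), which is 17.2-fold. PH-CM exceeded CO-CM 8.74-fold (log2 fold change 3.13, SE 0.127, edgeR FDR = 1e-07).

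Marco encodes a class A scavenger receptor of resident macrophages that binds bacteria and particles, and it lies at chr1:120474538-120505024. It was near the lower end of the measurable range, with 44, 50 and 72 reads in UNX, 24, 44 and 34 reads in CO-CM, and 40, 42 and 42 reads in PH-CM. Its level stayed between 0.351 and 0.838 CPM in all libraries and the PH-CM libraries overlapped both other groups. The gene did not enter the tests.

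**Figure D2:**
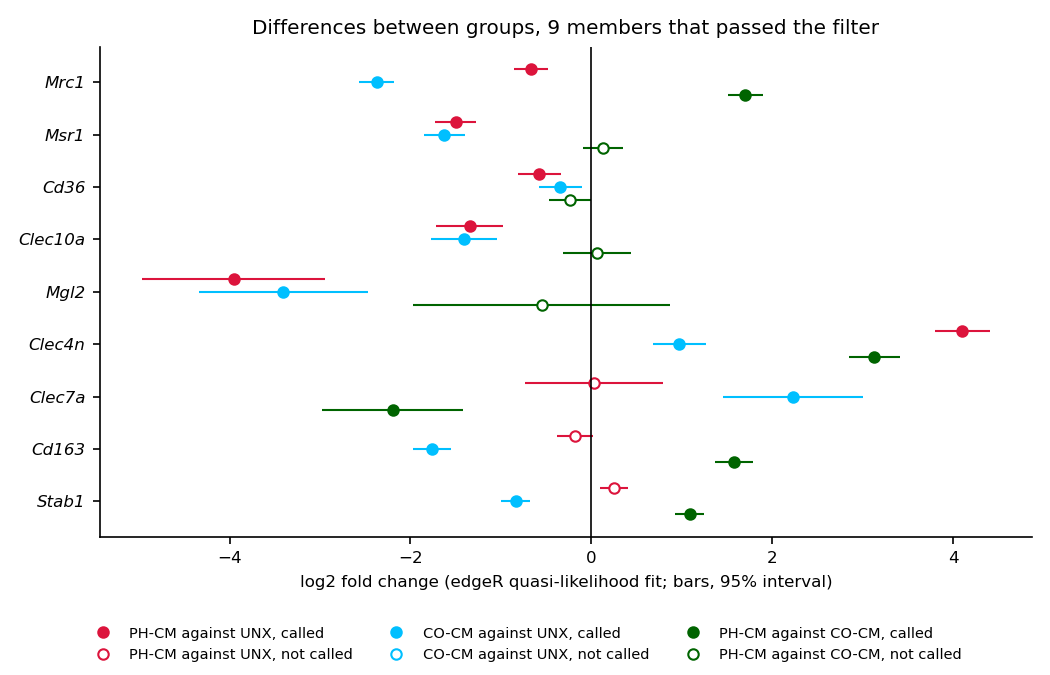
Log2 fold change of the 9 receptors that passed the filter in the 3 comparisons, with 95% intervals from the edgeR quasi-likelihood fit. Filled points passed both the FDR and the fold threshold. Clec4n is the farthest to the right, at 4.10 for PH-CM against UNX, and the intervals of Msr1, Clec10a and Mgl2 for PH-CM against CO-CM cross 0.

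Counted over the set, 1 receptor was called higher and 5 lower for PH-CM against UNX, and 3 were not called. Over all genes tested, 31.3% were called higher, 31.7% lower and 63.0% either way in that comparison. For CO-CM against UNX, 2 receptors were called higher and 7 lower, beside 28.0% higher, 28.9% lower and 57.0% either way over all genes. Since Mgl2 is among the lower genes in both, and passed the filter only through UNX, these counts hold 1 gene that the filter favoured. For PH-CM against CO-CM, 4 were called higher (Mrc1, Cd163, Stab1 and Clec4n) and 1 lower (Clec7a), beside 12.2%, 15.0% and 27.1% of all genes in the same order.

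With a fold change of at least 2 required, PH-CM against UNX left 1 receptor higher (Clec4n) and 3 lower (Msr1, Clec10a and Mgl2), beside 8.22% and 9.80% of all genes tested. CO-CM against UNX left 1 higher (Clec7a) and 5 lower (Mrc1, Msr1, Clec10a, Mgl2 and Cd163), beside 6.00% and 7.85%. All 5 calls between the media stayed, 4 higher and 1 lower, beside 2.81% and 2.31%. The libraries of both groups did not overlap for 8, 10 and 5 of the 10 receptors in the 3 comparisons, Marco included, beside 77.7%, 72.0% and 50.2% of all genes tested. The median log2 fold changes of the 9 were -0.57, -1.41 and 0.13, against 0.0072, 0.00024 and -0.0064 for all genes tested. Mgl2, which the filter favoured, is in these medians and in the lower counts against UNX above. Each pair of comparisons shares the libraries of a group, so the comparisons are not independent.

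Levels were compared between genes per length, in RPKM, reads scaled to gene length and library size. Cd36 was the most abundant receptor in every group, at 350, 263 and 226 RPKM in UNX, CO-CM and PH-CM. Stab1 came second in each, at 164, 87.7 and 187 RPKM. The following places changed with the medium. In UNX Mrc1 (149 RPKM) overlapped Stab1, and Msr1 (81.8 RPKM) came next. In CO-CM Clec7a (50.5 RPKM), Mrc1 (27.4 RPKM) and Msr1 (25.2 RPKM) could not be ordered, since each overlapped its neighbour. In PH-CM Mrc1 (89.9 RPKM), Clec4n (45.3 RPKM) and Msr1 (27.8 RPKM) followed without overlap.

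Clec4n moved from the eighth place in UNX, at 2.76 RPKM with its highest library just reaching the lowest of Clec10a, to the fourth in PH-CM. Clec7a overlapped Cd163 in UNX, at 11.3 and 7.64 RPKM. Mgl2 and Marco were the lowest in all groups, under 1 RPKM.

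**Figure D3:**
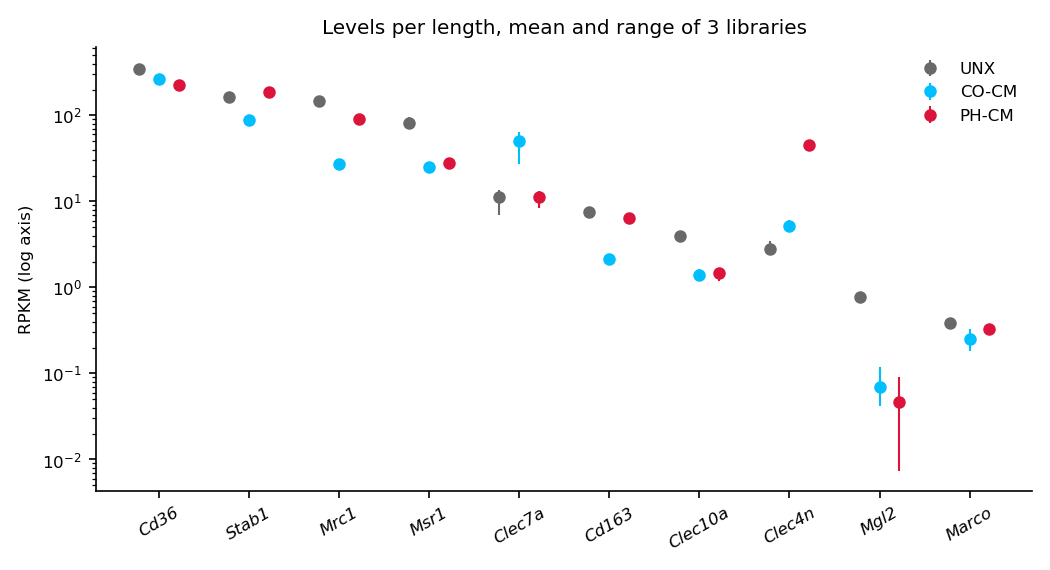
Level per length of the 10 receptors on a logarithmic RPKM axis, as the mean (point) and range (bar) of 3 libraries, ordered by the UNX mean. Cd36 is highest in each group, from 350 RPKM in UNX to 226 in PH-CM, and Mgl2 reaches the lowest values, 0.0687 in CO-CM and 0.0468 in PH-CM.

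Clec4n and Clec7a lie in clusters of C-type lectin genes on the same chromosome. Within 100 kb of Clec4n, 3 genes passed the filter: Clec4a2 (the inhibitory receptor DCIR), Clec4d (MCL) and Clec4e (Mincle, a receptor for mycobacterial glycolipid). All 3 rose under PH-CM against UNX, by 1.49, 2.03 and 1.56 on the log2 scale. Against CO-CM they were higher by 1.62, 1.55 and 1.51. Under CO-CM against UNX, Clec4d rose by 0.48, whereas Clec4a2 and Clec4e differed by -0.13 and 0.05 and were not called. Clec4d went from 309 ± 22.7 CPM in UNX to 1263 ± 43.8 in PH-CM (SD, n = 3).

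Near Clec7a, 2 genes passed the filter. Clec12a, an inhibitory receptor for uric acid crystals, rose by 0.44 under CO-CM and fell by 1.38 under PH-CM against UNX, a difference of -1.82 between the media. Gabarapl1, an autophagy gene and no lectin, rose by 1.30 and 1.06 under CO-CM and PH-CM. Clec1a, Clec1b, Clec9a and Olr1, the last of which encodes LOX-1, were below the filter. Genes near some other receptors were called too. Within 100 kb of Stab1, 5 of 7 tested genes were higher and 0 lower for PH-CM against CO-CM. The shares over all genes were 12.2% and 15.0%. Near Clec10a, all 3 tested genes were lower under each medium against UNX, beside 31.7% for PH-CM and 28.9% for CO-CM. Among them, Mgl2 and Bcl6b passed the filter only through UNX.

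Profiles were compared by Pearson's r of log2 CPM over the 9 libraries, as a description, since genes with the same group means share most of their variation and 3 groups set the shape. The genes most like Clec4n were Clec4d (r = 0.999), Ms4a6d (0.997) and Cnpy3 (0.997). Those most like Mrc1 were Gcnt1, Acsl4 and Pxk (0.994 to 0.989), and those most like Stab1 were Atp8b4, Slc9a9 and Tnfrsf1a (0.995 to 0.990). Cd163 was nearest to Rasgrp4, Ehd1 and Nrros (0.988 each), and Clec7a to Myl6, Daglb and Oit3 (0.992 to 0.984). Msr1 had the commonest profile, with 1180 genes above 0.95, led by Rcc2, Srrt and G3bp1. Clec10a was nearest to Lipt2, Bank1 and Impa2, Mgl2 to Inpp1, Dynll1 and Ccdc15, and Cd36 to Gm4316, Ndufv2 and Taf10. Among the receptors, Mrc1 and Cd163 had r = 0.970, Cd163 and Stab1 0.932, and Clec7a and Stab1 -0.909.

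The other C-type lectins, mannose receptor family genes and siglecs formed a list of 32 genes, of which 16 passed the filter. Under PH-CM against UNX, 10 were called higher and 4 lower, with a median log2 fold change of 0.90. Under CO-CM the counts were 8 and 2, with a median of 0.46. Between the media, 6 were higher under PH-CM and 3 lower. Over all genes tested, 31.3% were called higher and 31.7% lower for PH-CM against UNX. The shares were 28.0% and 28.9% for CO-CM against UNX, and 12.2% and 15.0% for PH-CM against CO-CM. The medians over all genes were 0.0072, 0.00024 and -0.0064 in the same order. The counts of this list and of those below were not tested against these shares. Clec4a1 had the largest increase under PH-CM, 2.99 on the log2 scale (SE 0.22, edgeR FDR = 6.65e-07) against UNX and 1.95 against CO-CM. Clec5a, a DAP12-coupled lectin, fell by 1.76 under PH-CM and by 1.19 under CO-CM. Cd22, a siglec, had the largest increase under CO-CM (2.03), and Siglece, an inhibitory siglec, fell there by 1.22. Siglecf was 3.35 lower on the log2 scale under PH-CM than under CO-CM, at 0.244 ± 0.240 and 2.46 ± 1.30 CPM. It passed the filter only through groups other than PH-CM, so this difference is partly set by the filter.

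**Figure D4:**
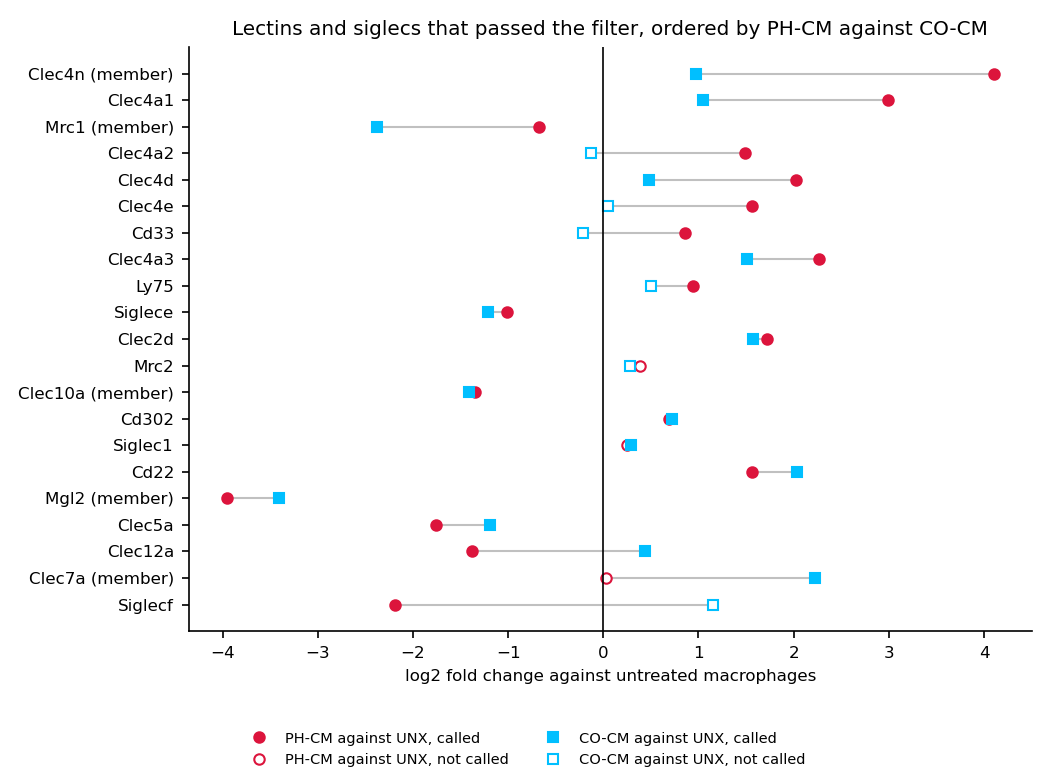
Log2 fold change against UNX of the lectins and siglecs that passed the filter, with 5 receptors of the set marked as members, for PH-CM (circles) and CO-CM (squares), ordered by the difference between the media. Clec4n and Clec4a1 lie at the top, at 4.10 and 2.99 under PH-CM, and Clec7a and Siglecf at the bottom.

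Other scavenger and clearance receptors were represented by 22 genes, of which 15 passed. With PH-CM 8 increased and 5 decreased, and with CO-CM 10 increased and 3 decreased. Between the media 3 were higher and 3 lower. Cxcl16, the scavenger receptor SR-PSOX and a chemokine, rose most under both media, by 2.59 under PH-CM and 1.79 under CO-CM on the log2 scale. Cd5l, a secreted scavenger protein of macrophages, fell by 2.13 under PH-CM and rose by 1.12 under CO-CM, a difference of -3.26 between the media (SE 0.14, edgeR FDR = 1.42e-07). Its levels were 28.1 ± 5.87, 61.4 ± 2.06 and 6.42 ± 0.533 CPM in UNX, CO-CM and PH-CM.

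Of 16 genes in the signaling chain of Dectin-1 and Dectin-2, all 16 passed the filter. Under PH-CM 5 rose and 3 fell, under CO-CM 4 rose and 5 fell, and between the media 7 were higher and 3 lower under PH-CM. Against UNX, 8 were not called with PH-CM and 7 with CO-CM, where 63.0% and 57.0% of all genes were called. The increases under PH-CM were in Syk (1.18), Card9 (0.44), Bcl10 (0.41), Prkcd (0.67) and Src (1.46), and the decreases in Egr2 (-2.20), Egr3 (-3.38) and Nlrp3 (-0.89). Apart from Src, Egr2, Egr3 and Nlrp3 these were named after their values were seen. Egr3 stood at 0.200 ± 0.164 CPM in PH-CM, so it passed the filter only through other groups. Its fall under PH-CM is therefore partly set by the filter. Fcer1g, the gamma chain that carries the Dectin-2 signal and also chosen after its values were seen, was not called in any comparison, at 615 ± 47.8, 594 ± 56.0 and 579 ± 31.4 CPM. Nlrp3, the inflammasome sensor, fell by 1.80 under CO-CM and was 0.90 above CO-CM with PH-CM.

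Genes that handle internalized cargo, 20 of 20 tested, had 11 increases and 3 decreases with PH-CM, and 12 and 2 with CO-CM. Hp, which encodes the haptoglobin that Cd163 binds in complex with hemoglobin, rose by 2.75 and 3.06 from 0.205 ± 0.0441 CPM in UNX. At that level Hp could pass the filter only through libraries with conditioned medium, where it was high. Its calls, and its place among these increases, are therefore partly set by the filter. Hmox1, the heme oxygenase downstream of that uptake, fell by 0.80 under CO-CM and was 0.55 above CO-CM with PH-CM. Lpl, lipoprotein lipase, fell by 3.59 under PH-CM, from 1961 ± 385 to 163 ± 54.4 CPM, and was not called under CO-CM. Abca1, the cholesterol exporter, exceeded its CO-CM level by 2.01 with PH-CM.

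Clathrin coat and early endosome genes, 20 of 20 tested, had 5 increases and 3 decreases with PH-CM, and 2 and 6 with CO-CM. With each medium 12 were not called, where 63.0% and 57.0% of all genes were called. The counts with CO-CM were 2 and 10 with library size alone and 3 and 5 with upper-quartile factors. Between the media 9 were higher under PH-CM and 11 were not called. Dab2, a clathrin adaptor, fell by 2.55 under CO-CM and by 1.41 under PH-CM. Its levels were 2129 ± 157, 364 ± 36.6 and 798 ± 13.7 CPM in UNX, CO-CM and PH-CM, the same order as Mrc1. Picalm, another clathrin adaptor, rose by 0.67 under CO-CM and stood at 330 ± 11.6 CPM in UNX against 1003 ± 60.2 in PH-CM, where it was called higher as well.

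Regulators with known roles at these receptor genes, 23 of 23 tested, had 15 increases and 2 decreases with PH-CM, and 15 and 1 with CO-CM. Pparg, the nuclear receptor that drives Cd36 in macrophages, fell by 1.29 under PH-CM and rose by 0.30 under CO-CM, while Cd36 itself was lower under both. Maf, a factor of resident macrophages, fell by 0.78 under CO-CM, at 735 ± 60.7, 430 ± 37.3 and 724 ± 54.6 CPM in the 3 groups, a shape like that of Cd163. Any link between these regulators and the receptors was not tested. Csf2rb, the shared GM-CSF receptor chain, rose by 2.45 and 1.79 under PH-CM and CO-CM. Cebpa had the largest increase under CO-CM, 1.90, and Cebpb the largest under PH-CM against CO-CM, from 54.3 ± 6.03 to 164 ± 22.4 CPM.

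**Figure D5:**
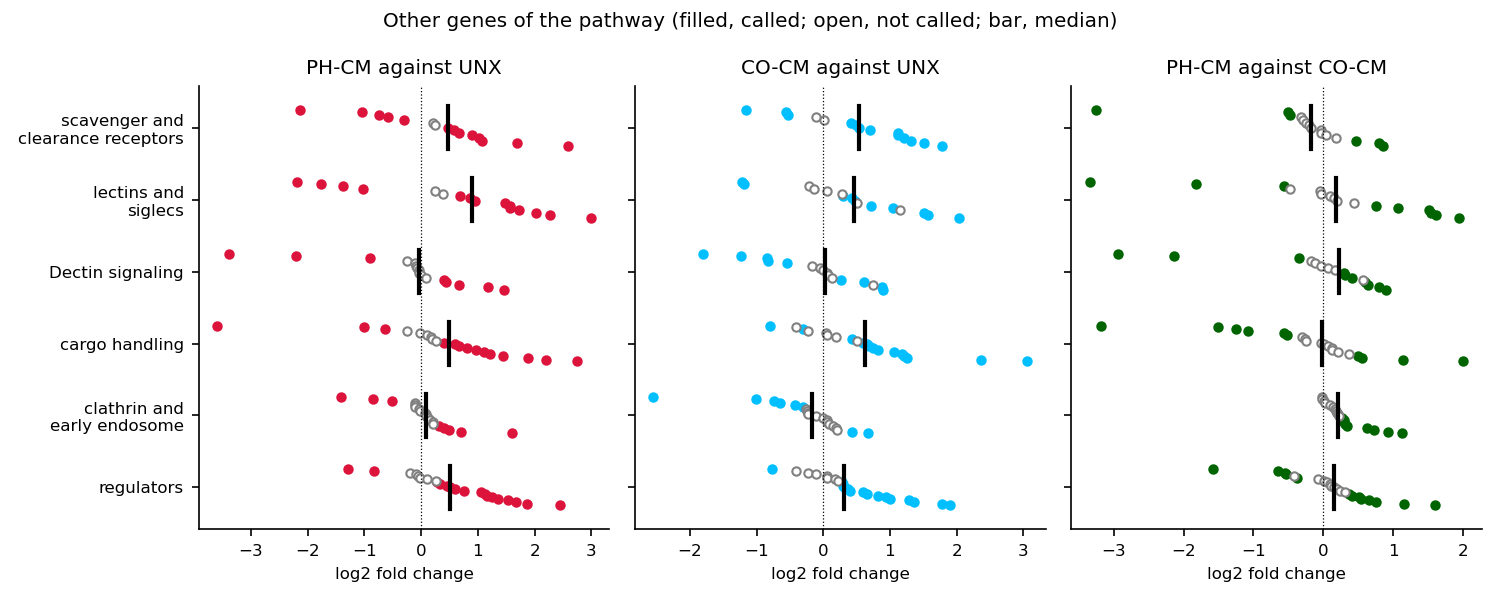
Log2 fold changes of the other genes of the pathway in 6 lists and 3 comparisons. Each point is a gene that passed the filter, filled where called, and the black bar is the median of the list. Medians lie between -0.18 (scavenger and clearance receptors, PH-CM against CO-CM) and 0.90 (lectins and siglecs, PH-CM against UNX).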

How the data were processed

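Libraries were made with the NuGen universal plus mRNA-Seq kit and sequenced as read pairs. Per the labels, the authors aligned trimmed reads to GRCm38 with STAR 2.6.0c, counted reads per gene with featureCounts 1.6.2 and deposited a table of raw read counts of 53465 genes. The authors also deposited RPKM values, reads scaled to gene length and library size. For the receptors, the lengths behind these values equal the exon lengths of GENCODE M21, the source of the gene coordinates. The authors' comparison tables (fold changes, mean log2 CPM, p and FDR) were not used. Between 81.4% and 83.8% of counts under 20 were even numbers, so both mates of a read pair may each count as 1 read.

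Counts were fitted with edgeR 4.0.16 in R 4.3.3 (TMM, glmQLFit and glmQLFTest, all 9 libraries, group as the only term) for genes above 1 CPM in at least 3 libraries, with Benjamini-Hochberg FDR over 11950 genes. Genes were called at FDR 0.05 or below if the fold change reached 1.2. Plotted and listed levels are TMM-scaled CPM. Replicate numbers came from the titles. Deviations from the group means correlated between libraries of the same number in every pair of groups (lowest r 0.276, highest 0.484). The numbers therefore pair the libraries. Values are from the fit without the block unless the block is named, and the blocked fit was run as an alternative. Replicates differed by more than sampling noise (chi-square per gene at least 8.21). Scripts were tested on simulated data. Figures were drawn with matplotlib 3.10.9.

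The receptors and gene lists were chosen with earlier results of these data known. Genes named from the lists are the called genes with groups that do not overlap and the largest increase or decrease in each comparison, and for likeness the 3 genes with the highest r. The PU box core was searched after the other motifs. Alternatives covered the exact test of edgeR, DESeq2 1.42.0, other scalings, filters and thresholds, fits of the compared groups only, a replicate block, counts divided by 2, each library left out, and levels without length.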

Additional observations from a re-analysis of the deposited data

How the results depend on the processing

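Over the alternative settings, 559 receptor values kept direction and side of the threshold, 6 passed it newly, 6 no longer passed it and 10 changed sign. The count of receptors called higher under PH-CM against UNX, 1, became 2 with upper-quartile factors, with no fold threshold, and without replicate 1 in any group (an alternative added after seeing the data), each time through Stab1. At a fold threshold of 2 the receptors called lower under PH-CM were 3 and those called higher under CO-CM 1. Leaving out 1 library at a time gave 1 to 2 higher and 4 to 5 lower for PH-CM against UNX, 2 higher and 6 to 7 lower for CO-CM against UNX, and 4 higher and 1 to 2 lower for PH-CM against CO-CM. The fall to 4 and 6 came without any UNX library, when Mgl2 no longer passed the filter, and without replicate 1 of CO-CM for Cd36 in CO-CM against UNX. With the replicate block the counts were 1 and 5, 2 and 7, and 4 and 1, and no call of a receptor changed. All sign changes were in differences that were not called. Clec7a for PH-CM against UNX was -0.024 with library size alone, -0.012 with no filter, -0.0064 with filterByExpr, -0.24 without replicate 1 of UNX, -0.03 and -0.10 without replicates 2 and 3 of PH-CM, and -0.051 without replicate 1 in any group, with single libraries left out from -0.24 to 0.21. For PH-CM against CO-CM, Clec10a was -0.042 and -0.053 without replicate 1 of CO-CM or replicate 2 of PH-CM, in a range from -0.053 to 0.22, and Mgl2 was 0.067 without replicate 1 of CO-CM, in a range from -1.41 to 0.067. Of the list counts, 12 rose and 30 fell by over 1.5 times and 750 did not, most at a fold threshold of 2. No scaling moved the median of all genes by more than 0.07. Ordering by CPM without length moved 14 of 30 places. The cause of these shifts was not tested, other than where the setting itself sets the threshold. Depth limits Mgl2 and Marco.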
